A study of Mus musculus with 35 samples.

Results

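Diabetic mouse retina after 10 weeks of diabetes with PBS (D10, 5 samples) was set against diabetic retina after 8 weeks of diabetes with PBS (D8, 5 samples), across all genes. Every sample of the series is labelled wild type and retina, and the remaining groups were D6 (6 weeks of diabetes, 5 samples), D8 depleted (2 weeks of microglia depletion, 4 samples), D10 repopulated (2 weeks of depletion and 2 of recovery, 5 samples), ND repopulated (5 samples) and the non-diabetic group (ND, 6 samples). D10 and D8 carry library numbers 2979 to 2983 and 2974 to 2978, and both labels name PBS, which the labels of D6 and ND do not. The series text names a drug given in chow for the depletion and the labels name DTx, and ages, sex, the way diabetes was induced and whether each sample is a separate animal were not analysed here. Time with diabetes, time with PBS and age cannot be told apart in this contrast. The p-values rest on errors worked back from the authors' comparisons, which include other groups, and the spread behind them may be technical.

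The study deposited no table of D10 against D8, so each gene's difference was taken as its log2 value in the authors' comparison of D10 with ND minus that of D8 with ND, in which the shared ND samples cancel. Of 25655 genes listed, 17317 had an adjusted p in both comparisons and were tested. The tables hold group values only, so sequencing depth is unknown, no value per sample could be given and no exact test over samples could be run. The standard error of each difference was solved from the deposited log2 values and p-values (median 0.160 log2), and a gene was called at an adjusted p under 0.05 (2-sided Wald test with a normal approximation, Benjamini-Hochberg over all genes tested). A second error, here called the joint error, was rebuilt from the 6 comparisons with ND as 1 model of all groups (median 0.158 log2), and it was chosen after the data were seen. The solved error joins errors from different fits of the authors, so calls that the joint error loses are marked as such throughout. Levels are the authors' group means in a unit that the files do not name.

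The retina holds rod and cone photoreceptors, bipolar, amacrine, horizontal and ganglion neurons, the Muller glia that span it, astrocytes, microglia, and blood vessels sealed by tight endothelium. Under stress, Muller glia and astrocytes raise Gfap and acute-phase genes through cytokines of the IL-6 family and STAT3. Interferons raise genes whose promoters carry interferon response elements, among them the guanylate-binding proteins and the class I antigen presentation machinery. Microglia that leave the resting state lose P2ry12 and related receptors and gain lysosomal and lipid-handling genes such as Gpnmb.

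Neuronal genes lay close to no difference between D10 and D8, and the called genes included immune, glial, vascular and lens genes. Among 12156 genes with a level over 1, 96.13% lay within 0.5 log2 of no difference, 164 were at least 2-fold higher and 6 at least 2-fold lower in D10. With the solved error 66 genes were called higher (0.381% of genes tested) and 5 lower (0.0289%). With the joint error 2 genes were called higher (0.0115%) and 0 lower (0%), although 673 (3.89%) and 110 (0.635%), or 4.52% in either direction, had an unadjusted p under 0.05. The solved error gave 767 (4.43%) and 99 (0.572%), or 5% in either direction, at that unadjusted threshold, and 0 genes were called in either direction when the errors of both comparisons were added as if independent. The 2 genes called with both errors were A2m and Gpnmb, and the lowest adjusted p that the joint error gave to the other 69 called genes was 0.106.

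**Figure D1:**
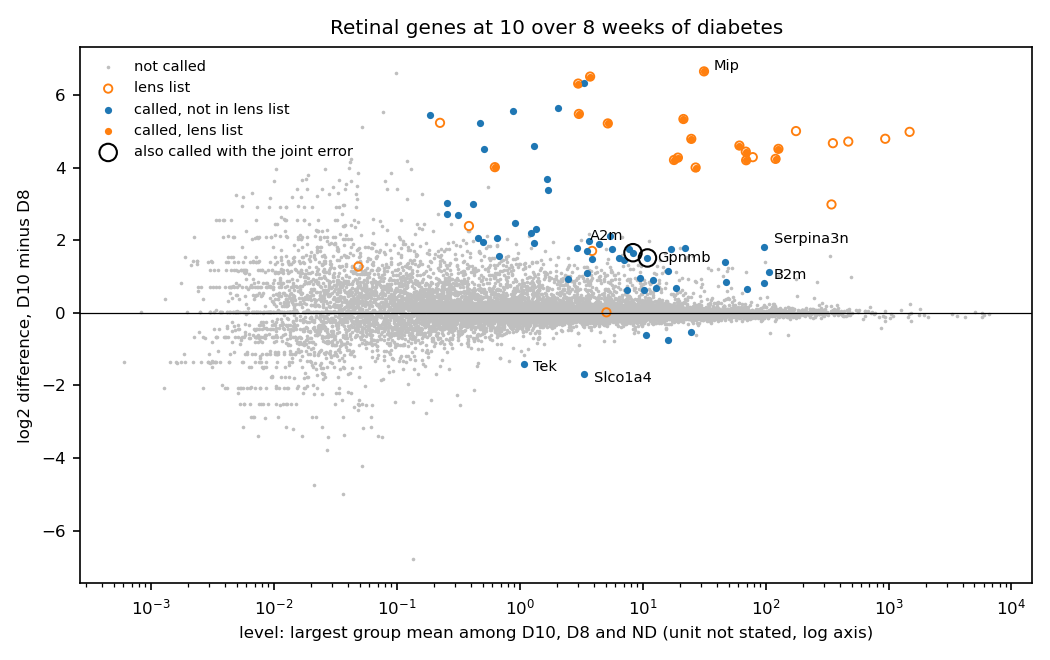
Log2 difference of D10 minus D8 (vertical axis) against the largest of the group means of D10, D8 and ND (horizontal log axis, unit not stated) for each gene tested. Filled points were called with the solved error (orange for the lens list, blue for others), open orange points are lens genes not called, and rings mark A2m and Gpnmb; most genes lie close to 0 and called genes lie above it far more often (66) than below it (5).

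A2m, the gene of the broad protease inhibitor alpha-2-macroglobulin and an acute-phase target of STAT3, lies at chr6:121612335-121656186 (GRCm39, plus strand). Its group mean was 8.35 in D10, 2.66 in D8 and 1.55 in ND. The log2 difference of D10 minus D8 was 1.66 with a standard error of 0.24 (adjusted p of 4.14e-08), and with the joint error it was called as well (standard error 0.30, adjusted p of 4.21e-04). Against ND it stood at 1.88 log2 at 6 weeks, 0.76 at 8 weeks and 2.42 at 10 weeks, so D8 was the lowest of the 3 diabetic times. In the authors' deposited table it was higher by 1.10 log2 in D8 depleted than in D8 (adjusted p of 0.00122), where microglia genes such as Csf1r were lower by 3.15.

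Of 32 tested genes of the IL-6 family, STAT3 and acute-phase list, 29 had a positive and 3 a negative difference, with a median of 0.89 log2 against 0.0021 for all genes tested. A total of 3 were called higher with the solved error (all genes: 0.381%) and 1 with the joint error. Serpina3n, a serine protease inhibitor of reactive glia, had group means of 97.7 in D10, 27.8 in D8 and 4.42 in ND. Its difference of D10 minus D8 was 1.82 log2 (standard error 0.41, adjusted p of 0.00507; joint adjusted p of 0.309). Cp, the copper-binding ferroxidase ceruloplasmin, had group means of 48.0 in D10 and 26.7 in D8, a difference of 0.86 log2 (adjusted p of 0.0341; joint adjusted p of 0.345). The iron-chelating Lcn2 had a mean of 333 in D10 and 113 in D8 and did not pass the test (1.57 log2, adjusted p of 0.172), nor did Stat3 itself (0.54 log2, adjusted p of 0.291).

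Interferon-stimulated genes all had positive differences, and few of them passed the test. The list of 34 antiviral genes had a median of 0.97 log2 and a range of 0.23 to 1.54, with 27 of 34 at an unadjusted p under 0.05 with the solved error and 25 with the joint error, beside 4.43% and 3.89% of all genes. The called member was Oasl2, a 2-5A synthetase-like gene, with means of 12.2 in D10 and 6.55 in D8 (0.91 log2, standard error 0.24, adjusted p of 0.0471; joint adjusted p of 0.314). Of the 17 interferon-inducible GTPases, which attack the vacuoles of intracellular pathogens, 17 had positive differences (median 1.16 log2) and Tgtp1 was called (means 2.91 in D10 and 0.845 in D8, 1.79 log2, adjusted p of 0.0403; joint adjusted p of 0.353). Tgtp1 has a near-identical neighbour in Tgtp2 (1.17 log2, adjusted p of 0.449), so the split of reads between these copies is uncertain. Gbp3, a guanylate-binding protein gene, had means of 13 in D10 and 5.36 in D8 without passing the test (1.28 log2, adjusted p of 0.0949).

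Class I antigen presentation genes all had positive differences too. All 21 tested members were positive, with a median of 0.67 log2 and a range of 0.15 to 1.09. With either error 17 had an unadjusted p under 0.05, beside 4.43% (solved) and 3.89% (joint) of all genes. The solved error called 2 of them (all genes: 0.381%). B2m, the invariant light chain of class I molecules (chr2:121978167-121983564, GRCm39), had group means of 97.0 in D10 and 54.9 in D8. Its difference was 0.83 log2 (standard error 0.17, adjusted p of 4.54e-04; joint adjusted p of 0.106). H2-K1, a class I heavy chain, had means of 70.5 in D10 and 44.8 in D8 (0.66 log2, adjusted p of 0.0327; joint adjusted p of 0.412), and reads of class I heavy chain genes can be shared among copies. The class II list, which marks professional antigen-presenting cells, had 9 positive and 3 negative members of 12 (median 0.15 log2), no call and Cd74 alone at an unadjusted p under 0.05 (1.14 log2, adjusted p of 0.181).

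Ifitm1, Ifitm2 and Ifitm3, which lie together on chromosome 7 and encode membrane proteins that hinder viral entry, were called higher with the solved error. They belong to no list and were picked after their values were seen. Ifitm3 (chr7:140589499-140590683, GRCm39) had means of 106 in D10, 48.5 in D8 and 10.7 in ND, a D10 minus D8 difference of 1.14 log2 (standard error 0.24, adjusted p of 0.00109; joint adjusted p of 0.15). Ifitm2 had means of 46.7 in D10, 17.8 in D8 and 6.80 in ND (1.40 log2, adjusted p of 0.00109; joint adjusted p of 0.15). Ifitm1 had means of 22.1 in D10, 6.40 in D8 and 1.44 in ND (1.80 log2, adjusted p of 7.1e-04; joint adjusted p of 0.153). At 6 weeks these genes stood 2.85, 2.13 and 2.83 log2 above ND, against 2.12, 1.36 and 2.15 at 8 weeks and 3.92, 2.76 and 3.29 at 10 weeks, in the order Ifitm1, Ifitm2 and Ifitm3, so D8 was the lowest of the 3 diabetic times.

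RefSeq promoters (GRCm38.p6, 250 bases before the start) were searched on both strands, whatever the gene's difference between D10 and D8. The motifs were an interferon response element-like motif, TTTCNNTTTC, and a STAT-type motif, TTCNNNGAA. The shares describe the lists and do not depend on the differences of D10 minus D8, whose cause was not tested. The first motif was found in 9 of 10 interferon-inducible GTPases with a promoter in the table (90%), in 11 of 24 antiviral genes (45.8%) and in 3 of 18 class I genes (16.7%), beside 3.46% of the 27025 genes in the table. The second was found in 6 of 10 GTPases (60%) and 4 of 24 antiviral genes (16.7%), beside 8.13% of all genes, and the motifs can overlap. Of 25 acute-phase list genes 1 held the first motif and 3 the second. The stretches of 90 bases below show where the motifs stand in 5 of these promoters, 5′ to 3′ on the gene's strand with matches in capitals. A match describes letters only and does not show binding.
B2m (chr2:122147518-122147607, plus strand): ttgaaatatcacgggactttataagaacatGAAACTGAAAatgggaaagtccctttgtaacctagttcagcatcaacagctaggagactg
Gbp3 (chr3:142559954-142560043, plus strand): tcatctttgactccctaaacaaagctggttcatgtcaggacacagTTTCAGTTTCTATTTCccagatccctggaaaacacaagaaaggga
Tgtp1 (chr11:48992275-48992364, minus strand): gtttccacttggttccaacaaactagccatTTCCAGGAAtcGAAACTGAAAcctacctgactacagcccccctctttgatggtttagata
Ifit3b (chr19:34607739-34607828, plus strand): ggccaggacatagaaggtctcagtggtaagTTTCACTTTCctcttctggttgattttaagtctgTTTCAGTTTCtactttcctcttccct
Ifitm2 (chr7:140955962-140956051, minus strand): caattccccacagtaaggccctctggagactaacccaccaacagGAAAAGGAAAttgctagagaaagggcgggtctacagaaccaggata

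In these stretches Gbp3 and Ifit3b held the interferon motif at 2 positions each, which overlap in Gbp3. The Tgtp1 stretch was the 1 of the 5 that held a STAT-type match too, next to its interferon motif. Ifit3b, an antiviral RNA-binding protein gene, had means of 14.7 in D10 and 6.17 in D8 and did not pass the test (1.26 log2, adjusted p of 0.0884).

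Complement genes were uneven. Of 21 tested genes, 17 were positive (median 0.40 log2), 9 had an unadjusted p under 0.05 with either error (beside 4.43% and 3.89% of all genes), and 2 were called with the solved error (all genes: 0.381%). C1ra, a protease of the first complement component, had means of 7.01 in D10 and 2.58 in D8 (1.45 log2, standard error 0.35, adjusted p of 0.0169; joint adjusted p of 0.345). C4b, the complement component that the C1 proteases cleave, had means of 9.46 in D10, 4.87 in D8 and 1.92 in ND (0.97 log2, adjusted p of 0.0357; joint adjusted p of 0.309). The 3 chains of C1q, which microglia make, were close to level between the times. C1qa had means of 9.16 in D10 and 7.71 in D8 (0.26 log2, unadjusted p of 0.293), C1qb 8.42 in D10 and 7.605 in D8 (0.16 log2, p of 0.535) and C1qc 5.57 in D10 and 4.91 in D8 (0.19 log2, p of 0.472).

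Secreted signals of leukocyte recruitment were mostly positive without a call. Chemokine and receptor genes had a median of 0.84 log2, with 20 of 24 positive. With the solved error 6 were higher at an unadjusted p under 0.05, beside 4.43% of all genes. Ccl5, which draws T cells and monocytes, had means of 6.75 in D10 and 2.25 in D8 (1.58 log2, adjusted p of 0.15), and Ccl2, the main monocyte chemokine, 34.0 in D10, 14.3 in D8 and 0.114 in ND (1.25 log2, adjusted p of 0.959). Adhesion genes had a median of 0.97 log2 over 14 genes, with Vcam1 at means of 14.5 in D10 and 6.85 in D8 (1.09 log2, adjusted p of 0.167). The IL-1, TNF and NF-kB list had 29 of 30 positive members (median 0.65 log2), none called. Of 22 infiltrating leukocyte markers 3 had a level over 1, and 2 were higher at an unadjusted p under 0.05, beside 4.43% of all genes.

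**Figure D2:**
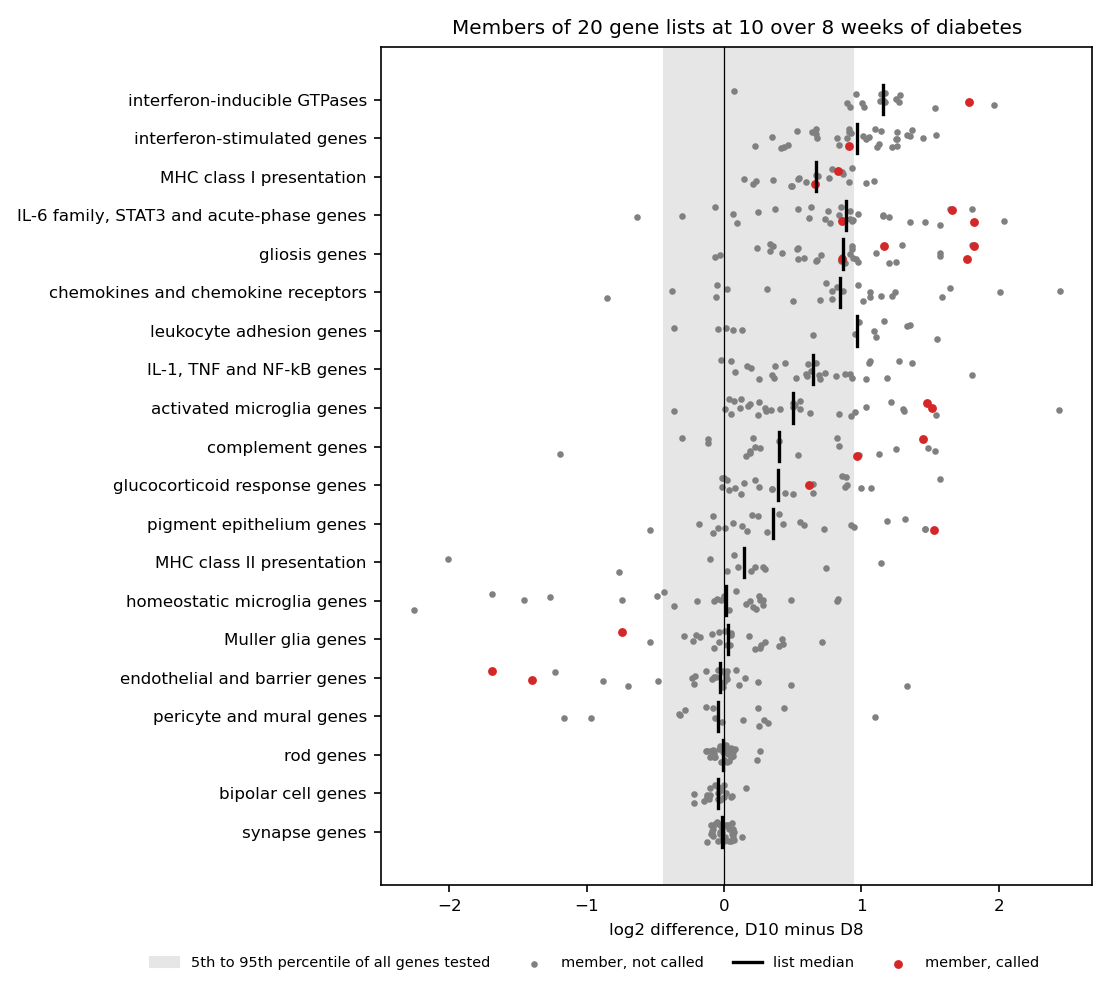
Log2 difference of D10 minus D8 for each tested member of 20 gene lists (points, red where called with the solved error), with the list median (black bar) and the span from the 5th to the 95th percentile of all genes tested (grey band, -0.44 to 0.94). All interferon and class I members and most acute-phase (29 of 32) and gliosis (32 of 34) members lie right of 0, the rod and synapse lists lie close to 0, and members of the homeostatic microglia, endothelial and mural lists lie on both sides of it.

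Gliosis genes were mostly positive, and genes of resting Muller glia lay on both sides of 0. Of 34 gliosis genes 32 were positive (median 0.87 log2), 22 had an unadjusted p under 0.05 with the solved and 17 with the joint error (beside 4.43% and 3.89% of all genes). Serpina3n, Cp, S100a4 and S100a6 were called with the solved error (all genes: 0.381%). The list shares members with the acute-phase list, Serpina3n and Cp among them, so these lists are not separate results. S100a4, a calcium-binding protein gene, differed by 1.77 log2 (adjusted p of 0.0321, joint adjusted p of 0.769). Against ND S100a4 stood at 1.07 log2 at 6, -1.96 at 8 and -0.19 at 10 weeks, so D10 was not above ND. S100a6, of the same family, had a mean of 16.1 in D10 and 8.88 in ND, and its log2 value against ND was 0.83 at 10 and -0.33 at 8 weeks (difference 1.16, adjusted p of 0.0386; joint adjusted p of 0.888). Gfap, which encodes the filament protein used as the marker of gliosis, had means of 7.95 in D10 and 4.42 in D8 and did not pass the test (0.86 log2, standard error 0.25, adjusted p of 0.0961; joint adjusted p of 0.428). The 24 genes of Muller glia had a median of 0.03 log2, with 14 positive and 10 negative. At an unadjusted p under 0.05 with the solved error 5 were higher and 3 lower, beside 4.43% and 0.572% of all genes, and with the joint error 1 was higher and 2 lower. Among the higher ones were Id3, an inhibitor of DNA binding (0.72 log2, adjusted p of 0.191), the filament gene Vim (0.42 log2, adjusted p of 0.443) and the clusterin gene Clu (0.40 log2, adjusted p of 0.741).

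Gpr37, an orphan receptor gene of Muller glia and oligodendrocytes, was the called member of that list and was lower. Its mean was 11.98 in D8 and 15.97 in ND. Against ND it stood at -1.01 log2 at 6, -0.44 at 8 and -1.18 at 10 weeks. The difference of D10 minus D8 was -0.74 (standard error 0.19, adjusted p of 0.0276, joint adjusted p of 0.195). Rlbp1, the retinaldehyde-binding protein gene of the Muller glia and pigment epithelium, was at -1.17 log2 at 10 and -0.62 at 8 weeks against ND without passing the test (difference -0.54, adjusted p of 0.436). The glutamine synthetase gene Glul differed by -0.18 log2 (standard error 0.16).

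Gpnmb, the gene of a transmembrane glycoprotein of lipid-laden phagocytes that melanocytes and pigment epithelium also express, was the other gene called with both errors (chr6:49013480-49047863, GRCm39, plus strand). Its group mean was 10.95 in D10 and 3.86 in ND, and against ND it stood at 1.51 log2 in D10 and -0.01 in D8. The difference was 1.52 log2 (standard error 0.22, adjusted p of 8.17e-08; joint error 0.31, adjusted p of 0.0114). In D6 it was 0.34 log2 above ND. In the authors' deposited tables it was 0.69 log2 higher in D8 depleted than in D8 (adjusted p of 0.0376), where C1qa was lower by 6.92, and 1.30 log2 higher in D10 than in D10 repopulated.

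Pigment genes also lay mostly above 0, and their part in its difference was not tested. Of 24 tested genes of the pigment epithelium list 19 were positive (median 0.36 log2). With the solved error 8 of these had an unadjusted p under 0.05, beside 4.43% of all genes, and Pmel was called (all genes: 0.381%). Pmel, which builds the melanosome fibril, had means of 6.39 in D10 and 4.79 in ND and stood at 0.39 log2 at 10 and -1.13 at 8 weeks against ND (difference 1.53, adjusted p of 0.0091; joint adjusted p of 0.195). The melanosome genes Mlana, Tyrp1, Dct and Oca2 differed by 1.47, 1.18, 0.92 and 1.32 log2 (adjusted p of 0.0999, 0.257, 0.548 and 0.403). The visual cycle genes of the list lay on both sides of 0, with Rpe65 at -0.08, Lrat at 0.43 and Rlbp1 at -0.54 log2. Rlbp1 was lower at an unadjusted p of 0.0099 with the solved error (adjusted p of 0.436). The pigment epithelium gene Best1 was at -0.18.

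Among 32 genes of activated microglia, 31 were positive (median 0.50 log2) and 12 had an unadjusted p under 0.05 with either error, beside 4.43% and 3.89% of all genes. Lgals3, the galectin-3 gene of activated phagocytes, was called besides Gpnmb, at a mean of 3.91 in D10 and 2.06 in ND and a D10 minus D8 difference of 1.48 log2 (adjusted p of 0.00555; joint adjusted p of 0.385). In the authors' deposited table Lgals3 too was higher in D8 depleted than in D8, by 1.40 log2 (adjusted p of 0.00186). Lysosomal and lipid genes of the same list were uneven, with Apoe at 0.05, Ctsd at 0.11, Ctsb at 0.12 and Lpl at 0.01 log2, and with Ctsl at 0.51 (unadjusted p of 0.017), Cd63 at 0.34 (unadjusted p of 0.0021) and Fabp5 at 1.21 (standard error 0.91), none of them called. Cd68, a lysosomal marker of phagocytes, had means of 1.64 in D10 and 1.15 in D8 (0.52 log2, unadjusted p of 0.102).

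Homeostatic microglia genes lay on both sides of 0. Their 26 genes had a median of 0.02 log2 with 14 positive and 12 negative, and no member was called with either error. Gpr34, P2ry12, Fcrls and Slc2a5 were lower at an unadjusted p under 0.05 with either error, beside 0.572% (solved) and 0.635% (joint) of all genes in that direction. P2ry12, the nucleotide receptor that guides resting processes to injury, had a mean of 0.360 in D8 and 0.447 in ND. Against ND it stood at -1.08 log2 at 6, -0.34 at 8 and -1.80 at 10 weeks. The difference of D10 minus D8 was -1.46 (standard error 0.47, unadjusted p of 0.0018, adjusted p of 0.19). Gpr34, a lysophosphatidylserine receptor gene, differed by -2.26 log2 (unadjusted p of 0.00117, adjusted p of 0.159) and Fcrls by -1.69 (unadjusted p of 0.00308, adjusted p of 0.252). Levels were low, with D8 means of 0.191 for Gpr34, 0.149 for Fcrls and 0.0769 for Slc2a5. Itgam, an integrin chain gene of myeloid cells, was the member of the list higher at an unadjusted p under 0.05 (0.82 log2, standard error 0.35, unadjusted p of 0.0172, adjusted p of 0.579), beside 4.43% of all genes.

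Csf1r, the receptor that microglia need to survive, had means of 1.33 in D10 and 1.30 in D8 (0.04 log2, standard error 0.30). Cx3cr1, the fractalkine receptor gene, had means of 0.656 in D10 and 0.761 in D8 (-0.20 log2, standard error 0.31), and Tmem119 0.426 in D10 and 0.604 in D8 (-0.49 log2, standard error 0.43). In bulk retina, fewer cells of a type and less RNA per cell cannot be told apart.

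Of 28 tested endothelial and barrier genes 2 were called lower with the solved error (all genes: 0.0289%), namely Slco1a4 and Tek. Slco1a4, an organic anion transporter gene of the blood-brain and blood-retina barrier, had a mean of 2.72 in D8 and 3.33 in ND. Against ND it stood at -1.45 log2 at 6, -0.32 at 8 and -2.01 at 10 weeks. The difference of D10 minus D8 was -1.69 log2 (standard error 0.40, adjusted p of 0.011; joint adjusted p of 0.142). Tek, the gene of the angiopoietin receptor TIE2 (chr4:94627526-94763213, GRCm39), had means of 0.360 in D10, 0.960 in D8 and 1.08 in ND. Against ND it stood at -1.25 log2 at 6, -0.20 at 8 and -1.60 at 10 weeks. It differed by -1.40 log2 (standard error 0.36, adjusted p of 0.0321; joint adjusted p of 0.106).

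Further endothelial genes of transport and identity lay below 0 without a call. Sox17, an arterial transcription factor gene, had means of 0.240 in D10, 0.573 in D8 and 0.688 in ND (-1.23 log2, adjusted p of 0.355). Abcb1a, the drug efflux pump, had means of 0.861 in D10, 1.41 in D8 and 1.85 in ND (-0.70 log2, adjusted p of 0.403). Slco1c1, a thyroid hormone carrier, had a mean of 2.07 in D8 and 3.03 in ND (-0.88 log2, adjusted p of 0.233). In D6, Sox17, Abcb1a and Slco1c1 stood at -1.28, -1.55 and -1.12 log2 against ND. Of the 28 endothelial and barrier genes 5 had an unadjusted p under 0.05 in the lower and 1 in the higher direction, beside 0.572% and 4.43% of all genes, and the list median was -0.03 log2. Several other endothelial genes were close to level, with Pecam1 at means of 2.60 in D10 and 2.69 in D8 (-0.04 log2), Cdh5 at 1.69 in D10 and 1.44 in D8 (0.25 log2), Cldn5 at 10.3 in D10 and 12.2 in D8 (-0.23 log2) and Kdr at 13.8 in D10 and 14.8 in D8 (-0.08 log2). Vegfa, the main angiogenic growth factor of hypoxic retina, had means of 45.3 in D10, 46.0 in D8 and 50.8 in ND (-0.01 log2, standard error 0.14).

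Mural cell genes had a median of -0.04 log2 over 16 genes. Rgs5, Cspg4 and Higd1b, which mark pericytes, were lower at an unadjusted p under 0.05 (-0.28, -0.97 and -1.17 log2) with none called (adjusted p of 0.208, 0.362 and 0.438), beside 0.572% of all genes in that direction. Acta2, the smooth muscle actin gene of the same list, was higher at that threshold (1.10 log2, unadjusted p of 0.00226, adjusted p of 0.219). Pdgfrb, the growth factor receptor of pericytes, differed by -0.02 log2 (standard error 0.17). Igfbp3, an insulin-like growth factor carrier from the growth factor list, was called higher, with means of 3.52 in D10, 1.64 in D8 and 0.501 in ND (1.11 log2, adjusted p of 0.0374; joint adjusted p of 0.345).

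**Figure D3:**
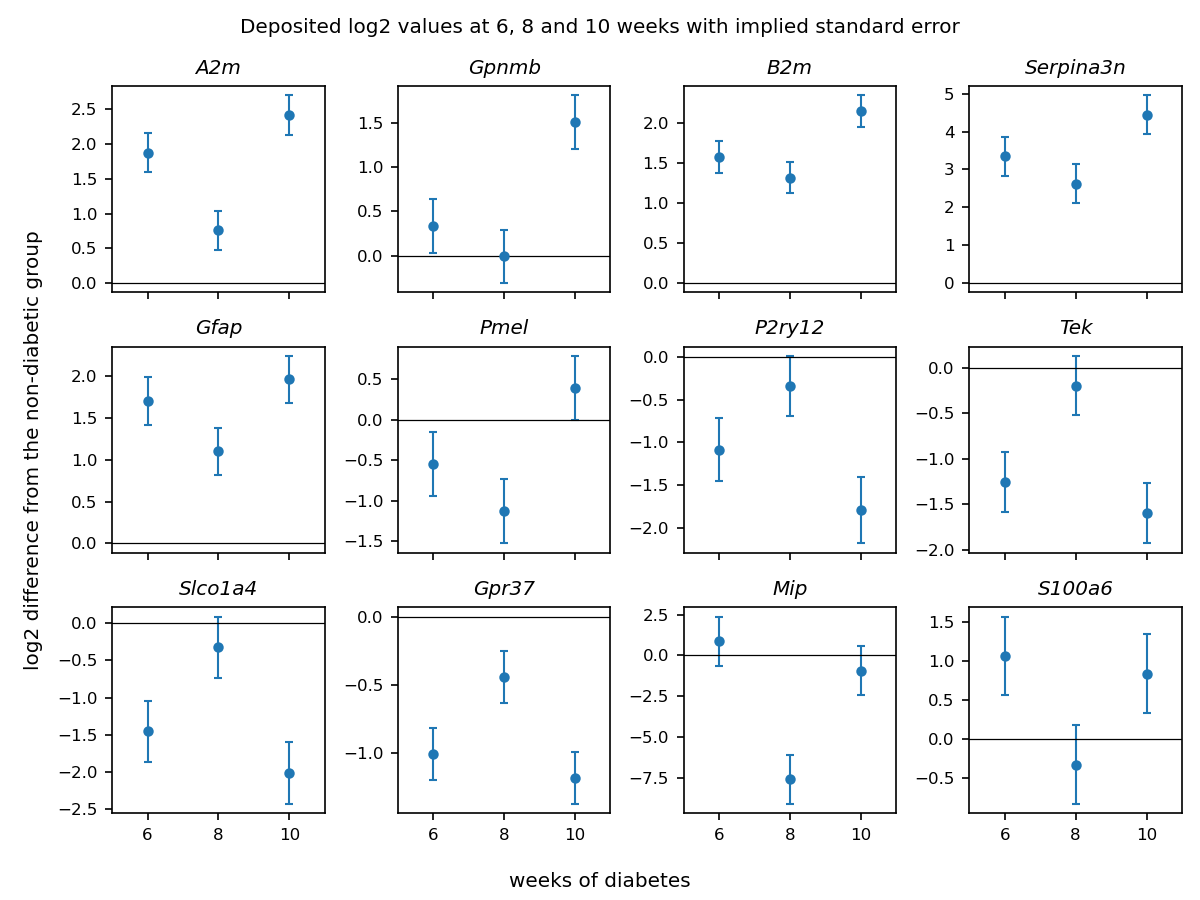
Deposited log2 difference from ND for 12 genes at 6, 8 and 10 weeks of diabetes (points), with the standard error implied by the deposited p-value (bars). The points share the ND samples and D6 carries no PBS label. A2m, Gpnmb, B2m, Serpina3n, Gfap, Pmel, S100a6 and Mip are lowest at 8 weeks. P2ry12, Tek, Slco1a4 and Gpr37 are closest to ND at 8 weeks. Not every called gene had such a course, since Prss8 stood at 0.50 log2 at 6, 1.08 at 8 and 3.02 at 10 weeks.

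Neuronal lists stayed on 0. The 28 rod genes had a median of -0.0040 log2 and a range of -0.13 to 0.26, with none called and none at an unadjusted p under 0.05 with either error. Gnat1, the rod transducin gene, had means of 3031 in D10 and 3231 in D8 (-0.08 log2, standard error 0.18), and Sag, the rod arrestin gene, 1940.2 in D10 and 2106 in D8 (-0.10 log2, standard error 0.16). Bipolar (median -0.04, 22 genes), amacrine and horizontal (-0.0032, 25 genes) and synapse genes (-0.01, 33 genes) likewise had no member called or at an unadjusted p under 0.05. The 19 cone genes had a median of 0.01 log2, with the cone arrestin gene Arr3 at means of 98.6 in D10, 152 in D8 and 81.1 in ND (-0.61 log2, unadjusted p of 7.28e-04, adjusted p of 0.115). Ganglion cell genes had a median of -0.01 log2, and the injury gene Sprr1a was the 1 member at an unadjusted p under 0.05 (1.53 log2, adjusted p of 0.408).

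Pcdh15 and Col2a1 were the remaining genes called lower, and neither is in any list. Pcdh15, a protocadherin gene of photoreceptor and hair cell links, had means of 6.92 in D10 and 10.7 in D8 (-0.62 log2, standard error 0.12, adjusted p of 4.11e-04; joint adjusted p of 0.15). It stood at 0.59 log2 at 6, 0.73 at 8 and 0.11 at 10 weeks against ND, so D8 was the highest of the 3 times. Col2a1, a fibrillar collagen gene of vitreous and cartilage, had a mean of 24.9 in ND and differed by -0.52 log2 between D10 and D8 (adjusted p of 0.0321; joint adjusted p of 0.325).

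Glucocorticoid response genes had a median of 0.40 log2, with 21 of 24 positive and 13 at an unadjusted p under 0.05 with the solved and 10 with the joint error (beside 4.43% and 3.89% of all genes). Fkbp5, the chaperone of the glucocorticoid receptor feedback loop, was called, with means of 10.4 in D10 and 6.79 in D8 (0.62 log2, standard error 0.13, adjusted p of 0.00151; joint adjusted p of 0.183). The target Tsc22d3 differed by 0.03 log2 (standard error 0.13). Mt2, a metallothionein gene, had means of 494 in D10 and 249 in D8 (1.00 log2, adjusted p of 0.55). Hif3a differed by 0.65 log2 (adjusted p of 0.255) and Pdk4 by 1.07.

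Genes of basic metabolism differed by small amounts. Oxidative phosphorylation genes were negative in 26 of 28 cases with a median of -0.05 log2, and ribosomal protein genes positive in 31 of 32 cases with a median of 0.08, with no member called in either list. The medians of the glycolysis and HIF, cholesterol and clock lists were 0.03, -0.04 and -0.03 log2. Car9, a carbonic anhydrase gene that hypoxia induces, was the called member of the glycolysis and HIF list, at a mean of 0.257 in D10 and 0.132 in ND (3.02 log2, adjusted p of 0.0464; joint adjusted p of 0.427), and the hypoxia sensor gene Egln3 differed by 0.29 (adjusted p of 1).

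Lens genes were most of the called genes with the largest differences, and against ND they were low in D8 more than in D10. All 28 tested lens genes were positive (median 4.57 log2). With either error 25 had an unadjusted p under 0.05, beside 4.43% (solved) and 3.89% (joint) of all genes. The solved error called 16 (all genes: 0.381%) and the joint error 0 (all genes: 0.0115%). Mip, the water channel gene of lens fibres (chr10:128061707-128067681, GRCm39), had means of 17.0 in D10, 0.167 in D8 and 31.6 in ND (6.66 log2, standard error 0.93, adjusted p of 1.42e-08; joint error 1.58, adjusted p of 0.106). The list medians against ND were 1.75 log2 at 6 weeks, -4.55 at 8 weeks and -0.34 at 10 weeks, and -6.39 in D8 depleted. Lens is not part of the neural retina, and the part that lens tissue in the samples has in other differences was not tested.

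Of the 66 genes called higher, 27 had D8 at least 2-fold below ND, 16 within 2-fold of it and 23 at least 2-fold above it. Among the genes outside the lens list, the Wnt ligand gene Wnt7b (5.66 log2, mean 1.24 in D10 and 2.05 in ND), the Wnt agonist gene Rspo1 (4.59 log2) and the histone gene H2ac19 (6.34 log2, mean 3.33 in D10 and 2.55 in ND) had D8 far below ND, at -6.42, -5.74 and -5.97 log2. Their adjusted p was 4.78e-07, 7.39e-04 and 2.58e-05, and with the joint error 0.109, 0.338 and 0.106. H2ac19 has near-identical copies, so its counts are uncertain. Haemoglobin genes, a sign of blood in the tissue, did not separate the times, with Hbb-bs at 0.19 log2 (standard error 0.63) and at -3.45 log2 at 10 and -3.64 at 8 weeks against ND.

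Of the 66 genes, 32 lay outside every list. Of those, 5 genes picked after their values were seen are given first. Psca, a surface antigen gene of bladder and stomach epithelium, had means of 17.1 in D10, 5.07 in D8 and 1.91 in ND (1.77 log2, adjusted p of 0.0117; joint adjusted p of 0.239). Plet1 had means of 5.45 in D10 and 1.26 in D8 (2.13 log2, adjusted p of 0.0321; joint adjusted p of 0.309), and the membrane protease gene Prss8 1.31 in D10 and 0.346 in D8 (1.94 log2, adjusted p of 0.0321; joint adjusted p of 0.216). The amino acid transporter gene Slc6a14 had means of 1.25 in D10 and 0.271 in D8 (2.22 log2, adjusted p of 0.0224, joint adjusted p of 0.325). The lactoferrin gene Ltf had 1.36 in D10 and 0.273 in D8 (2.33 log2, adjusted p of 0.0281, joint adjusted p of 0.314). At 6, 8 and 10 weeks Psca stood at 1.42, 1.38 and 3.15 log2 against ND and Plet1 at 0.57, 1.14 and 3.27. Prss8 stood at 0.50, 1.08 and 3.02, Slc6a14 at 0.88, 1.45 and 3.67 and Ltf at 1.58, 2.23 and 4.55. For these genes except Psca, D8 lay above D6. Keratin and surface epithelium genes, which could enter with cornea, ciliary body or iris, had a median of 0.67 log2 over 23 genes with none called, and Krt12, the corneal keratin, had means of 5.41 in D10 and 2.28 in D8 (1.26 log2, unadjusted p of 0.0722). The part of such tissue in these differences was not tested.

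Further genes outside the lists, also picked after their values were seen, were called higher. Apod, a lipid-binding lipocalin of glia, had means of 5.67 in D10, 1.66 in D8 and 0.493 in ND (1.77 log2, standard error 0.36, adjusted p of 8.4e-04; joint adjusted p of 0.214). Papss2, which makes the sulfate donor for proteoglycans, had a mean of 2.47 in D10 and 1.46 in ND (0.95 log2, adjusted p of 0.0327; joint adjusted p of 0.106). Fstl1, a secreted follistatin-like glycoprotein gene, had means of 12.9 in D10, 8.13 in D8 and 8.13 in ND (0.68 log2, adjusted p of 0.0011; joint adjusted p of 0.469). Lbp, the endotoxin-binding acute-phase protein, had low means of 0.5001 in D10 and 0.129 in D8 (1.96 log2, adjusted p of 0.0273, joint adjusted p of 0.22).

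**Figure D4:**
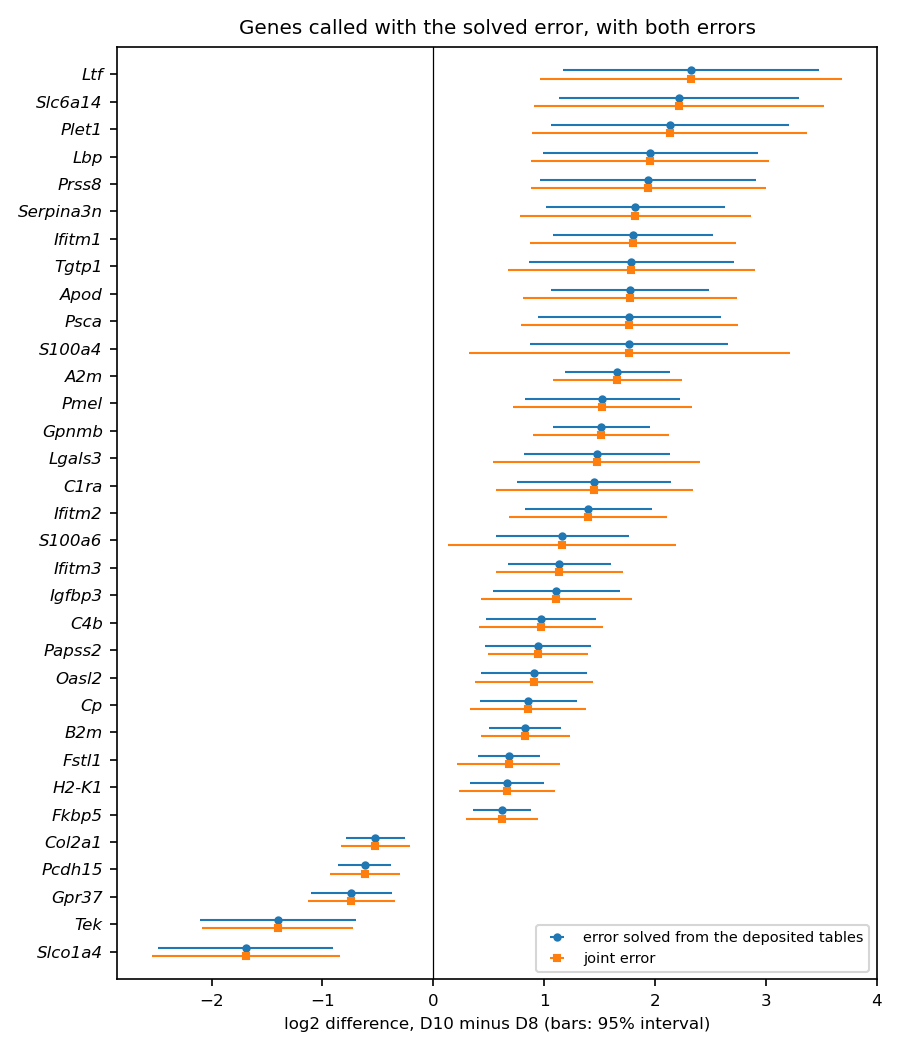
Log2 difference of D10 minus D8 (points) with 95% intervals from the solved error (blue circles) and the joint error (orange squares) for 33 named genes called with the solved error, lens genes and others with D8 near 0 left out. The genes were chosen by the solved error, so its intervals leave out 0 by that choice. The joint intervals rest on the same deposited comparisons and leave out 0 for these chosen genes too. After adjustment over all genes the joint error called only A2m and Gpnmb.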

How the data were processed

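Stranded poly(A) RNA libraries were made from mouse retina, per the labels' protocols. Per the submitters' processing notes, reads were converted with bcl2fastq and the genome was GRCm39. Which aligner, counter and test the study ran is not given in the sources used here. Each deposited table sets a group against another and lists, per gene, a signal level (the larger group mean, unit not stated), a p-value with its FDR form and a log2 fold change. The direction of the table of D10 and D10 repopulated was settled from the closing of the triangle of comparisons.

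The error of a deposited log2 value was taken as its size over the normal quantile of its p. The variance of D8 was solved from the comparisons among D8, D8 depleted and ND, and that of D10 from those among D10, D10 repopulated and ND (99.64% of genes tested); for the rest both errors were added. The joint error took each gene's squared errors against ND as a counting and a spread term (99.72% of genes, median misfit 0.0825%). The ratio of solved to joint error had a median of 1.05 over all genes and 0.626 over lens genes. Adjustment was by Benjamini-Hochberg. Python 3.11.15, numpy 2.4.6, pandas 2.3.3 and scipy 1.17.1 were used. The steps were run on simulated data for genes with a level over 1, in which D10 alone differed. Genes with D8 near 0 were therefore not covered.

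The members and the 41 gene lists (1062 members, 1035 tested) were chosen with earlier results of these data known. The naming rule took called genes with a level over 1 (up to 15 in each direction by size), the 10 smallest p in each direction, the 4 smallest p of each list and a set of cell markers, with predicted names left out. It took 183 genes, of which the text names some, and 30 more were chosen after their values were seen. Genes named besides these are list members. Promoters came from RefSeq tables. Some genes that the naming rule or the lists took are not reported here.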

Additional observations from a re-analysis of the deposited data

Results flagged for a closer look

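The difference of D10 minus D8 compares these groups alone, since the shared ND samples cancel. It cannot test whether an effect of diabetes changed between the times, because ND is a single group without matched times. The named genes called with the solved error are listed here with that difference in log2. Lower in D10 were Slco1a4 (-1.69), Tek (-1.40), Gpr37 (-0.74), Pcdh15 (-0.62) and Col2a1 (-0.52). Higher by less than 1 log2 were Fkbp5 (0.62), H2-K1 (0.66), Fstl1 (0.68), B2m (0.83), Cp (0.86), Oasl2 (0.91), Papss2 (0.95) and C4b (0.97). Higher by 1 to 2 log2 were Igfbp3 (1.11), Ifitm3 (1.14), S100a6 (1.16), Ifitm2 (1.40), C1ra (1.45), Lgals3 (1.48), Gpnmb (1.52), Pmel (1.53), A2m (1.66), S100a4 (1.77), Psca (1.77), Apod (1.77), Tgtp1 (1.79), Ifitm1 (1.80), Serpina3n (1.82), Prss8 (1.94) and Lbp (1.96). Higher by 2 to 4 log2 were Plet1 (2.13), Slc6a14 (2.22), Ltf (2.33) and Car9 (3.02). Lens genes and other genes with D8 far below D6 were higher by more than 4 log2, namely Bfsp2 (4.22), Crygb (4.25), Bfsp1 (4.28), Crybb1 (4.45), Cryba4 (4.52), Rspo1 (4.59), Crygd (4.62), Lgsn (4.80), Lctl (5.22), Lim2 (5.35), Gja3 (5.49), Wnt7b (5.66), H2ac19 (6.34), Foxe3 (6.52) and Mip (6.66). With the joint error A2m and Gpnmb alone kept an adjusted p under 0.05.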

How the results depend on the processing

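The number of genes called rested on the error. Against 66 higher and 5 lower with the solved error, errors added as independent gave 0 and 0, the joint error 2 and 0, a threshold of 0.01 gave 38 and 1, and a 2-fold minimum left 2 lower. Within 1.5 times of the main counts were a threshold of 0.10, solved genes only, each filter on low levels, predicted names left out, either route through the depleted or repopulated group, and centring on the median. No named gene reversed under any alternative run. Of the genes taken for naming and called, 50 lost the call with added errors and 48 with the joint error, and 1 with D8 read through the depleted group. List medians moved beyond their members' median error in 2 lists with a level over 1 and in 1 list by ratios of group means. Leaving out each replicate was not run, since the tables hold no value per sample. No paired analysis was possible because the tables carry no sample values and the labels give the groups no shared replicate numbers. Depth per sample is unknown, and fold changes of genes near 0 in D8 depend on the authors' model.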
